A study of Mus musculus with 9 samples.

Results

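Imprinted genes, which are expressed mainly from the copy inherited from 1 parent, were followed across mouse embryonic stem cells with and without the transcriptional co-activators Yap and Taz. The members were 42 genes named by symbol, of which 41 had a row among the 38940 genes of the table (Peg13 was not analysed here). By the parental copy that is active where a gene is imprinted, 18 were labelled maternally expressed and 23 paternally expressed, and Gnas gives different transcripts from each copy. For some members, such as Ube3a, imprinting is limited to certain tissues, and the labels were not checked in these cells. A mean of 1 FPKM (fragments per kilobase of transcript and per fixed number of mapped fragments, a level per transcript length) over the 9 libraries was reached by 29 members, and 12 lay below it and are described as low. The mean of Sgce, 1.32, was just inside this limit, and those of Rian, 0.788, and Meg3, 0.758, were just outside it.

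The study compared 3 groups of 3 poly(A) RNA libraries. Control cells carried conditional alleles, given in the labels as Yapfl/fl/Tazfl/fl, libraries labelled Taz KO carried Yapfl/fl/Taz-/-, and libraries labelled Yap/Taz double KO had both genes deleted by their titles, although their genotype entry repeats that of the Taz KO. All groups grew on fibronectin in N2B27 medium with 0.4 µM PD0325901 (a MEK inhibitor), 3 µM CHIR99021 (a GSK3 inhibitor) and 4 ng/ml of the cytokine Lif, together 2i/Lif. Cre-ERT2, a recombinase switched on by 4-hydroxytamoxifen (500 nM), was integrated with piggyBac to delete the alleles. Every sample, control cells included, carries this same protocol text, and the genotype entry of the control cells keeps both floxed alleles. They also do not say whether the 3 libraries of a group came from separate cultures or clones, so p-values measure the spread between these libraries only, and genotype and cell line cannot be told apart.

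Imprinting rests on DNA methylation laid down in the egg or the sperm at control regions, kept through early development by Dnmt1 and by Zfp57 with Trim28, and read by neighbouring genes in clusters. Several imprinted genes act on growth: Igf2 is a growth factor, Igf2r removes it, Grb10 dampens insulin and IGF signalling, and Peg10, Phlda2 and Ascl2 serve the placenta. Imprinted expression is known to vary between mouse pluripotent stem cell lines, and the Dlk1-Meg3 cluster is among the best studied cases. FPKM adds both parental copies, so which copy was read was not measured.

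The reads behind the values could be recovered from the steps of the FPKM, and came to 19.1 to 24.0 M per library. Yap1 lay at 18.1 to 19.1 FPKM in control, 17.9 to 18.6 in the Taz KO and 3.98 to 4.62 in the double KO libraries. Wwtr1, the gene for Taz, lay at 11.1 to 12.7, 9.03 to 11.9 and 13.2 to 14.7 FPKM; the labels do not say which part was deleted, so a value over the whole gene does not check that deletion. All 8 embryonic stem cell markers had a mean above 1 FPKM. Their sum ranged over 1512 to 1579 FPKM in control, 1493 to 1541 in the Taz KO and 1316 to 1395 in the double KO libraries. Libraries with the same replicate number deviated together from their group means in all 3 groups.

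Promoters of 3 members are shown because results below turn on these genes: Meg3, which was not detected in either knockout, Mest, which was higher in double KO, and Grb10, which was lowest there. Of several annotated starts of a gene, the window with most matches to the letters described next is shown. Each is the 250 bases before to 50 bases after the annotated start, from RefSeq (GRCm38.p6), read 5′ to 3′ on the strand of the gene. The windows are chr12:109540746-109541045 (plus strand) for Meg3, chr6:30737800-30738099 (plus strand) for Mest and chr11:12037371-12037670 (minus strand) for Grb10. Capitals mark TGCCGC or its reverse complement GCGGCA, the letters that Zfp57 binds when methylated, and TGACGTCA, a palindrome known as the cAMP response element.
Meg3: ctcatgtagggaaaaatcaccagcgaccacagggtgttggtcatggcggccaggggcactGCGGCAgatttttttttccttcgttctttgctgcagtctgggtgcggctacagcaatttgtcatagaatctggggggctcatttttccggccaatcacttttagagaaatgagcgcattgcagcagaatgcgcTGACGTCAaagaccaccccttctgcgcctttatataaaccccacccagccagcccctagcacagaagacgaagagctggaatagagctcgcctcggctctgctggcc
Mest: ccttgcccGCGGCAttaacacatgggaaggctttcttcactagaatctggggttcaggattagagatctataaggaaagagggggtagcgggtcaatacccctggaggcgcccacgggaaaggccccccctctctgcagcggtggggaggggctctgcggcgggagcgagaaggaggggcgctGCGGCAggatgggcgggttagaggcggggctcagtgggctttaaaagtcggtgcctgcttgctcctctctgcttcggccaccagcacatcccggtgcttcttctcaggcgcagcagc
Grb10: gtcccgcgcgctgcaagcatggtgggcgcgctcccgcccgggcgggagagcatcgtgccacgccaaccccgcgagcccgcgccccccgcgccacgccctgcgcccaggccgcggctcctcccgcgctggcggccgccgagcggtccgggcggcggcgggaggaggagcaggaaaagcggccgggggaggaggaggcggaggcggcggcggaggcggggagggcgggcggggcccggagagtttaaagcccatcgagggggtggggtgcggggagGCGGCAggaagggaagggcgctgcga
The Zfp57 letters occurred on either strand in 11.6% of the 32851 mouse promoter windows in that table and in 13 of the 51 windows (25.5%) that matched 35 members. Those 13 windows belong to Commd1, Copg2, Grb10, Igf2, Mcts2, Meg3, Mest, Nap1l5, Nnat, Plagl1, Snrpn and Zim1, with 2 windows for Mest that nearly coincide. TGACGTCA stood in 1.79% of all windows and in 3 of the 51, those of Meg3, Peg3 and Usp29; Peg3 and Usp29 start from opposite strands of 1 region. These matches are descriptions of the sequence, and no binding or methylation was measured. The Zfp57 letters hold a CG. The median over all windows was 7 CG, and member windows ranged from 0 (Rian) to 45 (Grb10). The windows were not matched for CG, and its part in the shares above was not tested.

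The maternally expressed non-coding RNAs of the Dlk1-Meg3 cluster on chromosome 12 were present in control cells and missing, or nearly so, in both knockouts. Meg3, a long non-coding RNA at 109541001 to 109571726 (mm10, plus strand), had 2.52, 2.97 and 1.34 FPKM in the control libraries and 0 in all 6 knockout libraries. These were 2747 control reads against no read, so Meg3 was at least 885-fold lower in Taz KO and at least 915-fold lower in double KO, with 3 reads over a group as the floor. Rian, the snoRNA host transcript that follows Meg3 on the same strand, had 2.54, 2.91 and 1.59 FPKM in control libraries, between 0.00637 and 0.00907 in Taz KO and between 0.00637 and 0.0145 in double KO. With 4487, 14 and 18 reads, Rian was 310-fold lower in Taz KO (95% interval for counting error 184 to 567) and 249-fold lower in double KO (157 to 421). No knockout library overlapped a control library for either RNA.

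Mirg, the microRNA host transcript at the far end of the cluster, had 0.587, 0.582 and 0.297 FPKM in control libraries, 0 in every Taz KO library, and 0.0115 in the second double KO library with 0 in double KO replicates 1 and 3. Its 119 control reads faced no read in Taz KO, at least 38.3-fold lower, and 1 read in double KO, 119-fold lower with an interval of 20.9 to 4737. Rtl1, a retrotransposon-derived gene read from the paternal copy with a maternal antisense transcript over it, had 32 control reads, 1 in Taz KO (30.9-fold lower, 5.16 to 1259) and 0 in double KO (at least 10.7-fold lower). Whether the authors counted by strand is not given in the sources used here, so reads of Rtl1 and of its antisense transcript cannot be told apart. Dlk1, the paternally expressed inhibitor of Notch signalling, was near the floor throughout, with 3, 5 and 0 reads in the 3 groups.

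In a fit of all 24621 genes above 0, without the limit on low values, Meg3, Rian and Mirg were lower in both knockouts and Rtl1 in double KO; in that fit 5.35% of all genes passed as lower in double KO and 0.288% in Taz KO. Adjusted p in double KO was 0.000854 for Meg3, 0.000324 for Rian, 0.00227 for Mirg and 0.0105 for Rtl1. In Taz KO it was 0.00634 for Meg3, 0.00217 for Rian, 0.0159 for Mirg and 0.0692 for Rtl1 (0.0484 with the replicate number as a block). Meg3 and Rian passed in all 9 fits that left out 1 library, in both comparisons, while Mirg missed the threshold in 5 of the 9 for Taz KO (adjusted p up to 0.0729, without Taz KO replicate 3).

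**Figure D1:**
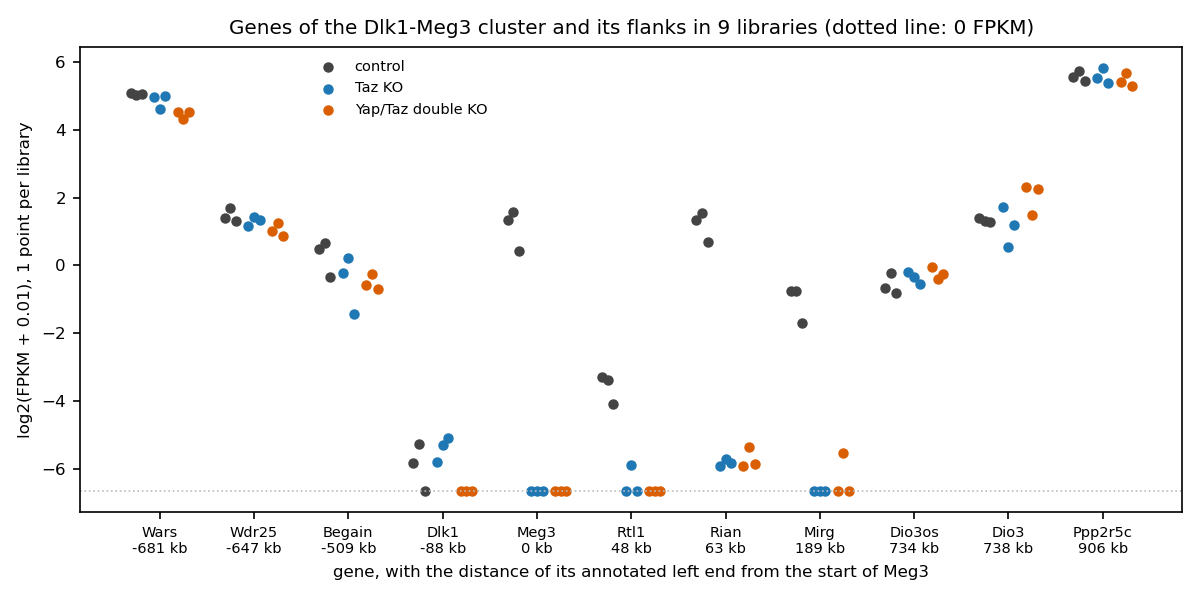
FPKM of genes in and around the Dlk1-Meg3 cluster on a log2 axis (0.01 added), 1 point per library, with the distance of each gene's left end from the start of Meg3 under its name. Meg3, Rtl1, Rian and Mirg stand higher in the 3 control libraries and at or near the dotted line (0 FPKM) in the 6 knockout libraries. Dlk1 is near that line in every group. The other genes shown, among them the imprinted Dio3, stay at 0.362 FPKM or more in all 9.

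The stretch from the start of Meg3 to the end of Mirg spans 208 kb and 80 annotated rows. Of these, 12 rows were above 0 in control cells and 3 in the knockouts, and 7413 control reads stood against 15 in the Taz KO and 19 in the double KO. Genes farther out that were read in control cells included Dio3, Begain and Ppp2r5c. Dio3, the imprinted deiodinase 738 kb beyond the start of Meg3, averaged 2.52 FPKM in control, 2.34 in the Taz KO and 4.18 in the double KO libraries. Begain, upstream of Dlk1, averaged 1.25, 0.788 and 0.699 FPKM, and Ppp2r5c, a phosphatase subunit gene beyond Dio3, averaged 47.9, 47.9 and 44.2 FPKM. By a rule chosen after these values were seen, 11143 genes in the table had at least 1 FPKM in every control library, and only Meg3 and Rian were under 1% of their control mean in every knockout library. The next gene by this measure, Fam198b, reached 9.70% in its highest knockout library.

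The cluster also encodes many microRNAs, short RNAs that pair with messenger RNAs through the seed at bases 2 to 8. RefSeq lists 112 mature microRNAs from 57 hairpins in the stretch, of which 3 lie within Meg3, 6 within Rian and 26 within Mirg. Mature microRNAs carry no poly(A) tail and were not measured: 49 of the 52 microRNA rows were at 0 in all libraries, and the other rows held 3 reads, all in control cells. Among these microRNAs 9 seeds are shared by more than one; 2 such pairs are shown with the seed in capitals, with miR-127-3p, which lies antisense to Rtl1.
miR-379-5p: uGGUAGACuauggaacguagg
miR-1193-5p: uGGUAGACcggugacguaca
miR-376b-5p: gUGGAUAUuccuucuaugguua
miR-376c-5p: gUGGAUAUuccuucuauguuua
miR-127-3p: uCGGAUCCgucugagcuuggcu
The first pair shares GGUAGAC and the second UGGAUAU.

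Among the 29 members tested, 15 differed between double KO and control, 7 higher and 8 lower (limma-trend on log2(FPKM + 0.5), called passing below where Benjamini-Hochberg adjusted p over all genes tested was under 0.05); 25.3% of all 11674 genes tested passed, so 51.7% of the members stood against that share. The groups did not overlap for 16 members, against 45.6% of all genes. The median log2 fold change was -0.04 over the members and -0.02 over all tested genes. Of the 15 paternally expressed members tested 6 were higher and 4 lower, and of the 13 maternally expressed 1 was higher and 3 lower, with medians of 0.37 and -0.04. No test compared the alleles. With each chromosome centred on its own median these medians were 0.07 and -0.05. With the replicate number as a block, which removes what same-numbered libraries share, 20 members passed, against 52.4% of all genes. The count was 6 without control replicate 1, 8 without control replicate 3 and 7 without double KO replicate 3. Grb10, Peg10, Zrsr1 and Sfmbt2 passed in every fit that left out 1 library. Taz KO against control gave 2 members, Ascl2 and Zrsr1, both lower (1.28% of all genes passed, 0.72% as higher and 0.565% as lower), and 9 with the replicate block, 2 higher and 7 lower (11.8% of all genes). The count fell to 0 in 6 of 9 fits with 1 library left out, those without any 1 control library, double KO replicate 1, or Taz KO replicate 2 or 3. The groups of that comparison did not overlap for 11 members (18.7% of all genes). Double KO against Taz KO gave 8 members, 5 higher and 3 lower (13.9% of all genes, 6.42% as higher and 7.45% as lower), and 19 with the block, 11 higher and 8 lower (42.4%). The groups of 11 members did not overlap (30.6%). There Grb10 and Peg10 passed in every fit with 1 library left out, while H19, Igf2, Plagl1, Commd1, Impact and Sfmbt2 did not pass without Taz KO replicate 1 (adjusted p of 0.155, 0.126, 0.0732, 0.178, 0.0721 and 0.135). The count was 2 without Taz KO replicate 1 or 3, 3 without double KO replicate 1 or 3, 4 without control replicate 1 and 5 without control replicate 3. Between the knockouts 11 members passed only with the block. They were Igf2r, Mest, Ndn, Mkrn3, Slc22a18 and Cd81, higher in double KO (blocked adjusted p of 0.0018, 0.00122, 0.00892, 0.00842, 0.0155 and 0.0408), and Copg2, Snrpn, Nnat, Gnas and Trappc9, lower (0.0296, 0.00565, 0.0134, 0.0219 and 0.0117). The comparisons share their libraries, so their results are given side by side and are not independent.

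**Figure D2:**
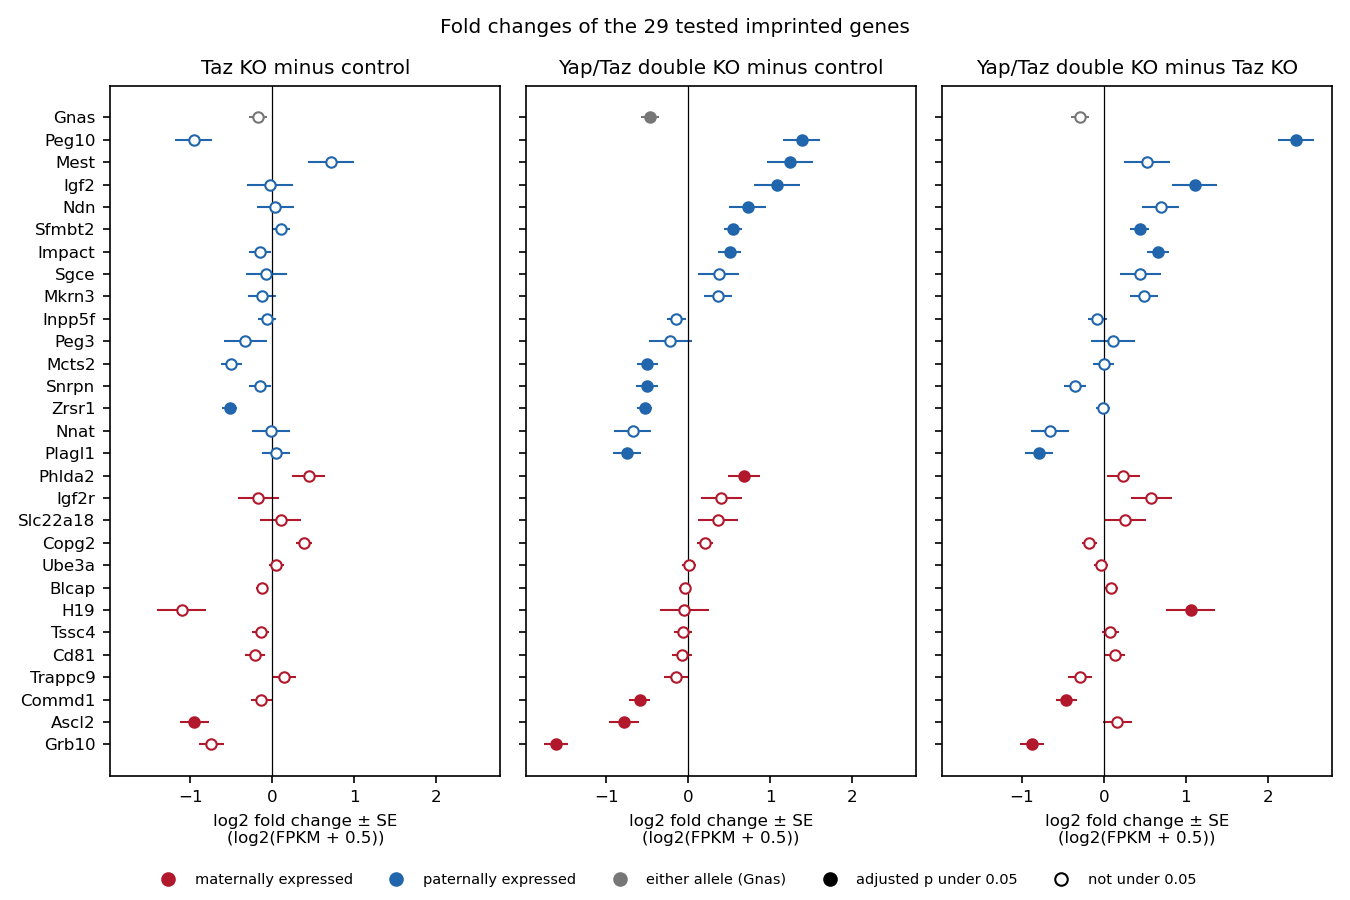
Log2 fold change with its SE for the 29 tested members in the 3 comparisons, red for maternally and blue for paternally expressed genes, filled where adjusted p was under 0.05. Filled points number 2 in the Taz KO panel, 15 in the double KO against control panel and 8 in the panel of both knockouts, and Grb10 and Peg10 lie farthest from 0 in the double KO panel.

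Among the genes of IGF and insulin signalling, Igf2 rose and Grb10 fell in double KO. Igf2, on chromosome 7, had 1.13, 1.63 and 1.39 FPKM in control, 0.936, 2.46 and 0.96 in the Taz KO and 2.80, 4.25 and 3.46 in the double KO libraries. Every double KO library lay above every library of the other groups, with a log2 fold change of 1.08 ± 0.28 (SE) from control (adjusted p = 0.0234, lost in 4 of 9 fits with 1 library left out, up to 0.0881 without control replicate 1) and 1.11 from Taz KO (adjusted p = 0.0331). Against Taz KO the Igf2 call was lost in 7 of 9 such fits. H19, the maternally expressed non-coding RNA beside Igf2, followed another course, with 2.39, 3.86 and 2.54 FPKM in control, 0.927, 1.65 and 0.757 in the Taz KO and 1.76, 4.10 and 2.86 in the double KO. Double KO and control overlapped for H19, and Taz KO lay below both. Its log2 fold change was -1.10 ± 0.30 in Taz KO (adjusted p = 0.128, and with the replicate number as a block, written blocked from here, 0.00368), -0.04 in double KO, and 1.06 between the knockouts (adjusted p = 0.0474, lost in 7 of 9 fits with 1 library left out, up to 0.155 without Taz KO replicate 1).

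Grb10, an adaptor that binds the insulin and IGF receptors (chromosome 11), stepped down over the 3 groups. It had 4.63, 4.08 and 4.78 FPKM in control, 3.25, 2.095 and 2.22 in the Taz KO and 1.19, 1.04 and 1.16 in the double KO libraries, and no 2 groups overlapped. The double KO mean, 1.13 ± 0.0768 (SD, n = 3), was 25.1% of the control mean, 4.50 ± 0.372. The log2 fold change was -1.62 ± 0.15 in double KO (adjusted p = 0.000285), -0.87 between double KO and Taz KO (adjusted p = 0.0084) and -0.74 in Taz KO (adjusted p = 0.053, blocked 0.00688). Igf2r, the receptor that carries Igf2 to lysosomes, had 19.8, 23.8 and 15.99 FPKM in control, 16.2, 25.1 and 12.8 in the Taz KO and 23.9, 33.4 and 22.4 in the double KO libraries. Its groups overlapped in each comparison, and it passed in double KO only with the replicate block (log2 fold change 0.41, adjusted p = 0.264, blocked 0.0053). Airn, the non-coding RNA that silences the paternal Igf2r in other tissues, had 6 reads in control, 1 in the Taz KO and 0 in the double KO.

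**Figure D3:**
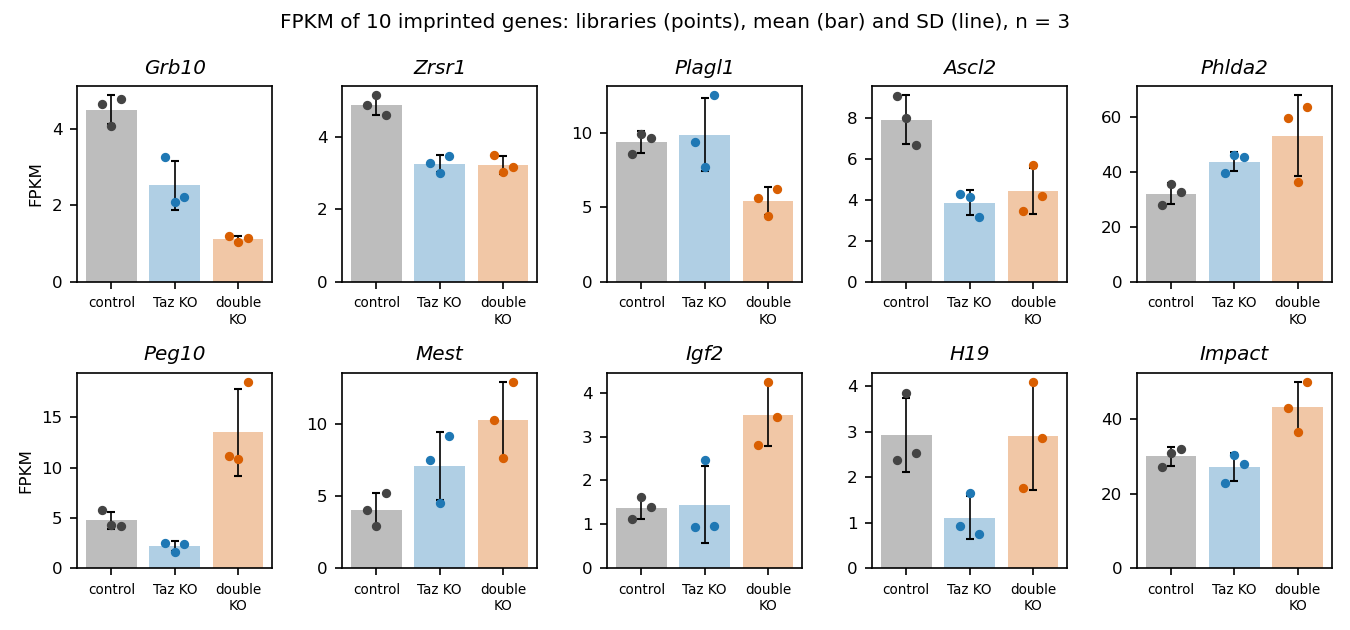
FPKM of 10 members by group: points are the 3 libraries, bars their mean and lines the SD. Grb10 steps down from control to double KO, Peg10 is lowest in Taz KO and highest in double KO, and Igf2 has a mean of 3.50 in double KO against 1.38 in control.

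Peg10, a retrotransposon-derived gene needed for the placenta, moved furthest of the higher members. It had 5.76, 4.28 and 4.23 FPKM in control, 2.53, 1.66 and 2.42 in the Taz KO and 11.2, 10.8 and 18.5 in the double KO libraries. The 3 groups did not overlap. Log2 fold change was 1.38 ± 0.22 in double KO (adjusted p = 0.0031), -0.96 ± 0.22 in Taz KO (adjusted p = 0.0802, blocked 0.0139), and 2.34 between the knockouts (adjusted p = 0.000825), a 6.12-fold ratio of mean FPKM. Sgce, which shares a promoter region with Peg10 and codes for a sarcoglycan, had 1.28, 1.43 and 0.801 FPKM in control, 0.994, 1.30 and 0.934 in the Taz KO and 1.17, 2.58 and 1.39 in the double KO libraries. These overlapped, and its log2 fold change in double KO was 0.37 ± 0.25 (adjusted p = 0.303).

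Mest, a paternally expressed hydrolase gene, had 4.04, 2.94 and 5.21 FPKM in control, 7.52, 4.53 and 9.18 in the Taz KO and 10.2, 7.65 and 12.9 in the double KO libraries. In each group the second library was lowest. Mest was higher in double KO, by a log2 fold change of 1.24 ± 0.28 (adjusted p = 0.0137, and 0.0512 without double KO replicate 3), and had 0.71 in Taz KO (adjusted p = 0.316, blocked 0.00198). Copg2, a coat protein gene that overlaps the end of Mest, had 24.7, 27.3 and 23.6 FPKM in control, 30.0, 36.1 and 33.3 in the Taz KO and 27.2, 31.6 and 29.04 in the double KO libraries. Its log2 fold change was 0.39 in Taz KO (adjusted p = 0.104, blocked 0.0045) and 0.21 in double KO (adjusted p = 0.14, blocked 0.0111).

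All 4 of these genes lie on chromosome 6, whose 495 tested genes had a median log2 fold change of 0.21 in Taz KO, with 85.9% above 0, and 0.19 in double KO, with 71.3% above 0. Relative to the median of their chromosome, Peg10 was 1.08 higher in double KO on the log2 scale (adjusted p = 0.0051) and 1.21 lower in Taz KO, where it then passed (adjusted p = 0.0312). On the same scale Mest was 0.93 higher in double KO (adjusted p = 0.0264) and Copg2 had -0.10 (adjusted p = 0.594). The part of the chromosome-wide shift in the values of single genes was not tested.

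In the Kcnq1 domain on chromosome 7, Ascl2 and Phlda2 moved apart. Ascl2, a transcription factor of trophoblast precursors, had 9.08, 8.03 and 6.71 FPKM in control, 4.29, 4.15 and 3.17 in the Taz KO and 3.47, 5.70 and 4.21 in the double KO libraries. All 6 knockout libraries lay below the control libraries, with a log2 fold change of -0.95 ± 0.18 in Taz KO (adjusted p = 0.0463) and -0.78 in double KO (adjusted p = 0.0151). The Taz KO call was lost in 8 of 9 fits with 1 library left out, with adjusted p up to 0.204 without control replicate 1. It was also lost with voom, with chromosomes centred, with an equal FPKM sum and without a filter. The double KO call was lost in 2 of the 9 fits, with adjusted p up to 0.065 without control replicate 1. Phlda2, which restrains placental growth, had 28.1, 35.6 and 32.9 FPKM in control, 39.8, 46.2 and 45.5 in the Taz KO and 59.8, 36.3 and 63.6 in the double KO libraries. It rose by 0.68 ± 0.20 in double KO on the log2 scale (adjusted p = 0.0347), with double KO replicate 2 just above the highest control. The call was lost in 6 of 9 fits that left out 1 library, with adjusted p up to 0.123 without control replicate 1.

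The 3 other members of that domain did not pass in double KO without the block. Cd81, a tetraspanin of the cell surface, was the most abundant member, with 150 ± 20.1 FPKM in control, 129 ± 13.8 in the Taz KO and 142 ± 13.7 in the double KO (SD, n = 3). Its log2 fold change in Taz KO was -0.21 (adjusted p = 0.578, blocked 0.0228). Slc22a18, a transporter gene, averaged 7.30 ± 1.65, 7.99 ± 2.58 and 9.60 ± 2.47 FPKM, with a log2 fold change of 0.37 in double KO (adjusted p = 0.304, blocked 0.00274). Tssc4 averaged 15.7, 14.2 and 15.1 FPKM.

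Zinc finger and chromatin genes among the paternally expressed members moved both ways. Plagl1 (Zac1), a zinc finger transcription factor on chromosome 10, had 8.58, 9.93 and 9.63 FPKM in control, 9.35, 7.70 and 12.5 in the Taz KO and 5.63, 4.42 and 6.25 in the double KO libraries. The double KO lay below the other groups, by -0.75 ± 0.17 from control (log2, adjusted p = 0.0157, and 0.0508 without control replicate 3) and -0.79 from Taz KO (adjusted p = 0.0209). Against Taz KO the Plagl1 call was lost in 3 of 9 fits with 1 library left out. Sfmbt2, a Polycomb-related gene, had 1.53, 1.42 and 1.62 FPKM in control, 1.57, 1.93 and 1.55 in the Taz KO and 2.52, 2.28 and 2.55 in the double KO libraries. It was higher in double KO than in control by 0.55 ± 0.11 (adjusted p = 0.0097) and than in Taz KO by 0.44 (adjusted p = 0.0363). Against Taz KO the Sfmbt2 call was lost in 7 of 9 such fits, with adjusted p up to 0.135 without Taz KO replicate 1. That call was also lost with quantile normalization, without a filter and with only the 2 groups compared. Peg3, a zinc finger gene, had 11.2, 11.8 and 12.7 FPKM in control, 8.87, 8.69 and 10.6 in the Taz KO and 11.0, 6.09 and 15.4 in the double KO libraries, the widest double KO spread among these genes, with a log2 fold change of -0.22 ± 0.27 (adjusted p = 0.582).

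Zrsr1, a splicing factor gene that lies inside an intron of Commd1, was lower in both knockouts, less firmly in Taz KO. It had 4.89, 5.15 and 4.62 FPKM in control, 3.29, 3.01 and 3.49 in the Taz KO and 3.52, 3.03 and 3.17 in the double KO libraries. Log2 fold change was -0.52 ± 0.09 in Taz KO (adjusted p = 0.0312) and -0.53 in double KO (adjusted p = 0.00403), and the knockouts differed by -0.01 ± 0.09. The Taz KO call was lost in 8 of 9 fits with 1 library left out, with adjusted p up to 0.164 without control replicate 1. It was also lost with quantile normalization, without a filter and with only the 2 groups compared. Commd1, a copper and NF-kappaB regulator, had 6.10, 5.12 and 6.26 FPKM in control, 5.80, 4.49 and 5.53 in the Taz KO and 4.28, 3.22 and 3.62 in the double KO libraries. It fell in the double KO, by 0.59 from control (adjusted p = 0.0122, and 0.0531 without control replicate 1) and by 0.46 from Taz KO (adjusted p = 0.0495, lost in 8 of 9 fits with 1 library left out) on the log2 scale; in Taz KO its log2 fold change was -0.14 ± 0.13.

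Impact, an inhibitor of the Gcn2 stress kinase, had 27.2, 30.8 and 31.9 FPKM in control, 22.9, 30.3 and 28.0 in the Taz KO and 42.8, 36.5 and 49.9 in the double KO libraries. Each double KO library was above all others, and the log2 fold change was 0.51 ± 0.14 from control (adjusted p = 0.0282, lost in 5 of 9 fits with 1 library left out, up to 0.106 without control replicate 1) and 0.66 from Taz KO (adjusted p = 0.0178). Against Taz KO the Impact call was lost in 4 of 9 such fits. Gnas, which codes for the stimulatory G protein alpha subunit and other transcripts, had 3.46, 3.50 and 3.27 FPKM in control, 3.05, 3.19 and 2.69 in the Taz KO and 2.26, 2.74 and 2.06 in the double KO libraries. It was lower in double KO by -0.46 ± 0.11 (log2, adjusted p = 0.0177, lost in 4 of 9 such fits, up to 0.0676 without control replicate 1), and its row does not separate its transcripts. Mcts2, a retrogene inside H13, had 18.9, 16.3 and 22.0 FPKM in control, 13.7, 11.5 and 14.9 in the Taz KO and 13.1, 12.4 and 14.4 in the double KO libraries. Both knockouts lay below the control libraries, with log2 fold changes of -0.50 in double KO (adjusted p = 0.0239, lost in 4 of 9 such fits, up to 0.0771 without control replicate 3) and -0.50 in Taz KO (adjusted p = 0.116, blocked 0.00254).

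In the Prader-Willi and Angelman cluster on chromosome 7, the paternally expressed genes went different ways. Snrpn, a splicing ribonucleoprotein gene, had 26.8, 22.8 and 26.6 FPKM in control, 25.9, 18.3 and 24.97 in the Taz KO and 19.2, 16.4 and 17.9 in the double KO libraries, and fell by 0.50 ± 0.14 in double KO on the log2 scale (adjusted p = 0.0289, lost in 4 of 9 fits with 1 library left out, up to 0.103 without control replicate 1). Ndn, a MAGE family growth suppressor, had 2.34, 3.44 and 1.53 FPKM in control, 2.80, 2.55 and 1.91 in the Taz KO and 4.58, 4.17 and 3.86 in the double KO libraries. It rose by 0.73 ± 0.23 (adjusted p = 0.044), a call lost in 6 of 9 fits that left out 1 library, with adjusted p up to 0.117 without double KO replicate 1. Mkrn3, a ubiquitin ligase gene, had 2.19, 1.93 and 1.68 FPKM in control, 1.69, 2.17 and 1.39 in the Taz KO and 2.82, 3.07 and 2.08 in the double KO libraries, with a log2 fold change of 0.37 in double KO (adjusted p = 0.148, blocked 0.0212). Ube3a, the ubiquitin ligase read from the maternal copy in neurons, averaged 16.7 ± 1.22, 17.3 ± 0.143 and 16.9 ± 1.58 FPKM (SD, n = 3), with a log2 fold change of 0.02 ± 0.09 in double KO. Magel2 and Peg12 of this cluster were low, at up to 0.0786 and 0.256 FPKM.

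The remaining tested members did not pass in double KO against control. Nnat, a neuronal proteolipid gene inside Blcap, had 3.32, 2.86 and 2.98 FPKM in control, 4.11, 1.83 and 3.51 in the Taz KO and 1.78, 1.44 and 1.98 in the double KO libraries. Double KO did not overlap control, with a log2 fold change of -0.68 ± 0.23 (adjusted p = 0.0618, blocked 0.0091). Blcap averaged 8.31, 7.55 and 8.08 FPKM, Inpp5f, a phosphoinositide phosphatase gene, 1.98, 1.87 and 1.75, and Trappc9, a trafficking complex subunit gene, 6.45, 7.13 and 5.73 in control, Taz KO and double KO. Adjusted p for Blcap, Inpp5f and Trappc9 was 0.758, 0.386 and 0.487. Among the low members, Asb4 reached 0.396 FPKM, Nap1l5 0.381, Usp29 0.355, Zim1 0.115 and Airn 0.0431 in their highest library.

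Ratios of a maternally to a paternally expressed neighbour could be formed for 5 pairs in which both members reached a mean of 1 FPKM. The log2 ratio of H19 to Igf2 was 0.85 ± 0.17 (SD, n = 3) in control, -0.23 ± 0.23 in the Taz KO and -0.28 ± 0.25 in the double KO, so both knockouts lay below control without overlap, with differences of -1.08 and -1.13. The lower ratio in Taz KO went with a lower H19 level and that in double KO with a higher Igf2 level, as the values above show. Copg2 to Mest had 2.52 ± 0.47 in control and 1.49 ± 0.43 in double KO, with 2.20 ± 0.58 in Taz KO overlapping both. The ratio of Ube3a to Snrpn was -0.59 ± 0.12 in control and -0.07 ± 0.08 in double KO, and that of Blcap to Nnat 1.31 ± 0.20 and 1.95 ± 0.22. Commd1 to Zrsr1 was 0.23 ± 0.21 in control, 0.61 ± 0.11 in the Taz KO and 0.16 ± 0.09 in the double KO.

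Groups did not overlap in 7 of these 15 comparisons of ratios, 4 of them double KO against control. A two-sided exact permutation test of 3 libraries against 3 cannot go below p = 0.1, which those 7 reached, and the adjusted value over the 15 tests was 0.214 for each, so none could pass the threshold.

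**Figure D4:**
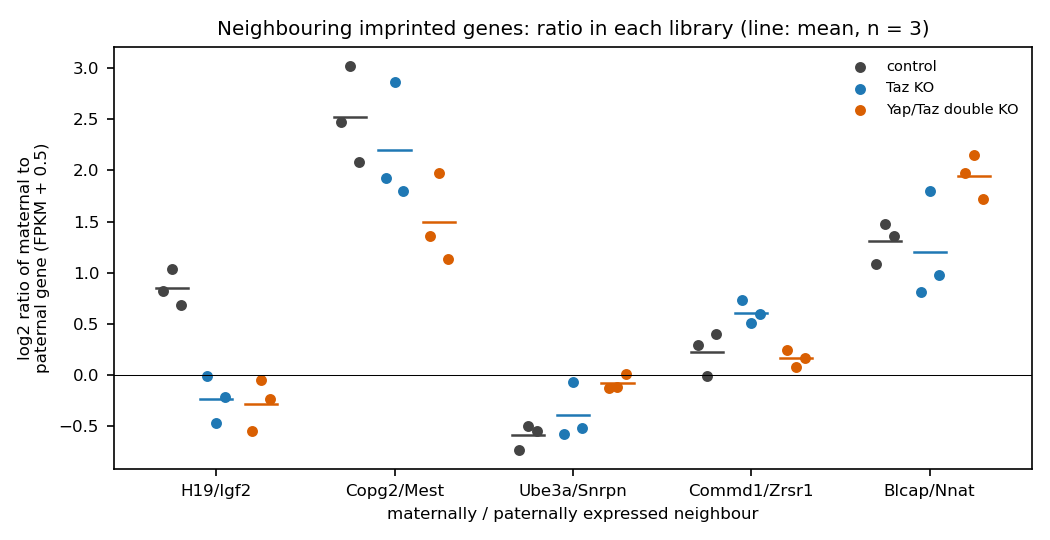
Log2 ratio of the maternally to the paternally expressed gene (0.5 FPKM added) in each library for 5 neighbouring pairs, with lines at the group means (n = 3). For H19/Igf2 the control libraries stand above 0.6 and the 6 knockout libraries at or below 0, and for Copg2/Mest the double KO mean of 1.49 lies below the control mean of 2.52.

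Among 42 other imprinted genes, 15 were tested and 7 passed in double KO, 3 higher and 4 lower, against 25.3% of all genes; their median log2 fold change was -0.11. With the replicate block 12 passed, 5 higher and 7 lower, against 52.4%. Cdkn1c, the growth-restraining cell cycle inhibitor of the Kcnq1 domain, rose from 3.24 ± 0.679 FPKM in control to 10.1 ± 1.62 in double KO (SD, n = 3; log2 fold change 1.51, adjusted p = 0.000484). Casd1, next to Sgce on chromosome 6, rose by 0.82 (adjusted p = 0.0106) and H13, which hosts Mcts2, by 0.37 (adjusted p = 0.0206). Relative to the median of its chromosome, Casd1 was 0.51 higher (adjusted p = 0.0260). Cobl and Ddc, both beside Grb10, fell by 1.53 (adjusted p = 2.42e-05) and by 1.00 (adjusted p = 0.00357) on the log2 scale, and Dhcr7 and Bcl2l1 by 0.42 (adjusted p = 0.0183) and 0.37 (adjusted p = 0.0122). With 1 library left out, the Dhcr7 call was lost in 3 of 9 fits (adjusted p up to 0.0694, without control replicate 1). That of H13 was lost in 4 of 9 (up to 0.0732, without double KO replicate 1). In Taz KO no gene of the list passed by limma-trend or by voom, with 2 at an unadjusted p under 0.05 (12.8% of all genes) and 3 with the replicate block (11.8%). Against Taz KO the double KO had 1 higher, Cdkn1c (6.42% of all genes), and 3 lower, Cobl, Ddc and Dhcr7 (7.45%). With the block 8 passed (42.4%). Dhcr7 was lost there in 8 of 9 fits with 1 library left out (adjusted p = 0.0421, and 0.154 without Taz KO replicate 1).

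Of 22 factors that set or keep imprints, 21 were tested and 5 passed in double KO, 1 higher and 4 lower, against the same 25.3%, with a median log2 fold change of -0.09. With the replicate block 9 passed, 3 higher and 6 lower (52.4% of all genes). Dnmt3l, the cofactor that helps lay down imprints in germ cells, fell from 82.6 ± 11.9 FPKM in control to 12.3 ± 3.10 (log2 fold change -2.72, adjusted p = 0.000203), with 58.7 ± 15.3 in Taz KO. Zfp57, which binds the methylated letters shown above, fell from 155 ± 12.7 to 73.5 ± 14.96 FPKM (log2 fold change -1.09, adjusted p = 0.00148), with 123 ± 9.35 in Taz KO. Its partner Trim28 fell by 0.66 (adjusted p = 0.0173) and Dnmt3b by 0.61 (adjusted p = 0.0103), while Dppa3, which guards maternal imprints in the zygote, rose by 1.11 (adjusted p = 0.0306). Dppa3 lies on chromosome 6, and relative to the median of that chromosome it did not pass (log2 fold change 0.81, adjusted p = 0.059). Without control replicate 1 Trim28 did not pass (adjusted p = 0.0691), nor did Dppa3 without double KO replicate 3 (adjusted p = 0.0962). In Taz KO no factor passed by limma-trend or voom, with 3 at an unadjusted p under 0.05 (12.8% of all genes) and 4 with the replicate block (11.8%). Dnmt3l and Zfp57 were also lower in double KO than in Taz KO, by -2.20 and -0.76 (Zfp57 adjusted p = 0.0136, and 0.0529 without Taz KO replicate 1). In that comparison 10 factors passed with the block, 1 higher and 9 lower (42.4% of all genes). Whether these levels bear on the imprinted genes was not tested.

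Markers of stem cells and of other cell types moved with the groups too. In double KO against control 12.4% of all genes passed as higher and 12.9% as lower. Of the 8 embryonic stem cell markers Klf4, Nanog and Sox2 were lower in double KO (log2 fold change -0.72, -0.31 and -0.33) and Zfp42 was higher (0.70). The summed level of 10 trophectoderm markers ranged over 65.2 to 72.1 FPKM in control, 68.0 to 83.9 in the Taz KO and 104 to 137 in the double KO libraries. Of these 10, 5 were under 1 FPKM in every library. Krt8 and Tfap2c, 2 of the 5 tested, were higher in double KO, and 4 of the 5 had a log2 fold change above 0. With the replicate block 3 passed as higher and 1 as lower (52.4% of all genes passed). For 10 primitive endoderm markers the sums were 207 to 236, 166 to 185 and 112 to 139 FPKM. Of these 10, 6 were under 1 FPKM in every library. Col4a1, Lamb1 and Sparc, 3 of the 4 tested, were lower in double KO. The 9 mesoderm and neural markers summed to 20.1 to 36.4, 19.9 to 46.2 and 28.5 to 63.4 FPKM, and the 12 fibroblast markers, 9 of them under 1 FPKM in every library and 3 of those (Postn, Dcn and Lum) at 0, to 22.5 to 40.1, 14.9 to 37.2 and 18.5 to 38.7 FPKM. Fewer cells of a type and less RNA per cell cannot be told apart in bulk libraries, and the part of these shifts in the imprinted genes was not tested.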

How the data were processed

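Poly(A) RNA was sequenced over 75 cycles. The values the authors deposited are FPKM per gene for 9 libraries; tools in the submitters' processing notes are DESeq2, HTSeq 0.6.1 and TopHat2 2.1.1, with the build mm10 and no roles. The annotation used and the strand setting were not given in the sources used here. Whole reads were recovered from the FPKM steps for all 24621 genes above 0 (tolerance 0.001), and the worth of 1 read followed median-of-ratios size factors, so library scaling was already in the values.

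Groups follow the sample titles. The tests used limma-trend 3.58.1 (R 4.3.3) on log2(FPKM + 0.5), which understates changes of low genes, over the 11674 genes with a mean of at least 1 FPKM, as 1 fit of 9 libraries with 6 residual degrees of freedom. Adjustment was by Benjamini-Hochberg over all of them, two-sided, with a threshold of 0.05. The fit was tested on simulated data, drawn with a fixed spread and without any effect shared by same-numbered libraries. That simulation therefore does not cover such an effect. The 15 ratio tests were exact permutation tests. Intervals and the floor of 3 reads cover counting error only. Positions are from GENCODE M21 by symbol (11022 of 11674 tested genes). Every member is named, and of the 2 gene lists those that passed. Members, lists and promoters shown were chosen with earlier results of these data known.

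Replicate numbers were checked for pairing: deviations from group means correlated at 0.192 to 0.711 in the 9 same-number pairs and at -0.688 to 0.394 in the 18 others. The labels do not say what a number marks; since every same-number pair exceeded 0.1, values blocked on that number are given where a member's call changes or a count moves by over 1.5 times. Genes that overlap or nest, such as Mest and Copg2, Zrsr1 and Commd1, Nnat and Blcap, Mcts2 and H13, Nap1l5 and Herc3, Airn and Igf2r, and Snrpn and Snurf, may share reads. Alternatives were other pseudocounts and filters, voom on recovered reads, an equal FPKM sum, quantile normalization, centred chromosomes, the block, 2 groups only, and each library left out.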

Additional observations from a re-analysis of the deposited data

How the results depend on the processing

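Members called in double KO against control numbered 15, and 6 to 16 with each library left out in turn. The other alternatives gave 11 (mean FPKM of at least 3) to 20 (replicate block). The filter at mean FPKM 3 kept 20 of the 29 members, and none of their calls changed in any comparison. Without a filter 10 of these 29 members passed together with 4 low ones, 14 in all. In Taz KO against control 2 members passed, 9 with the replicate block and 1 with only the 2 groups compared. Without a filter 0 of the 29 passed, and 3 low members did. With a library left out 0 to 2 passed: 0 without any 1 of the 3 control libraries, double KO replicate 1, or Taz KO replicate 2 or 3. Between the knockouts 8 members passed, 4 without a filter on low values, 4 of the 20 kept by the filter at mean FPKM 3, and 19 with the replicate block. There 3 passed with only the 2 groups compared, and 2 to 12 with a library left out. Each replicate number occurs once in each group, so the block leaves every log2 fold change as it was and could turn no direction. Ratios without overlap numbered 7, and 7 to 11 with a library left out, 11 of them without Taz KO replicate 2. Leaving out a library can only keep or raise this number, so that range does not check the ratios. With chromosomes centred, members still split into 7 higher and 8 lower in double KO, while over all genes 1107 were higher and 1739 lower, against 1443 and 1505. The cause of these differences was not tested. No called value reversed under any alternative run. Unfiltered fits with the block or a library left out, for members under 1 FPKM, were chosen after seeing the data. Depth limits Airn, Dlk1, Rtl1 and Magel2, which had few reads per library, and 3 libraries a group limit every ratio test.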
